A study of Mus musculus with 2 samples.

Results

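The replication-dependent histone genes encode the linker histone H1 and the core histones H2A, H2B, H3 and H4 that are made in bulk during S phase. They were chosen by name alone, as the protein-coding genes whose symbols start with Hist1h, Hist2h, Hist3h or Hist4h. Of 67 such genes in GENCODE release M21, 64 were in both gene tables, among 21474 protein-coding genes and 42462 named genes in all. Hist1h2bh, Hist1h2bm and Hist2h2bb were not analysed here, and the pseudogenes Hist1h2aj, Hist1h2al and Hist3h2bb-ps were left out by the rule. The 64 genes comprise 6 of class H1, 18 of H2A, 15 of H2B, 12 of H3 and 13 of H4. The polyadenylated linker histone gene H1f0 carries another kind of symbol and is not a member.

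The study measured total RNA in the forebrain of mouse embryos of strain B6NCrl at embryonic day 14.5, with 2 biological replicates in a single untreated group. The labels describe each sample as the forebrain of 1 embryo, yet list the sex as pooled male and female and give both samples the same donor identifier with different collection days. Each library started from 10 ng of mirVana-extracted RNA longer than 200 nt with spike-ins, and the linked general protocol is named after Smart-seq although the molecule is called total RNA. The depth was 35310017 expected counts in replicate 1 and 29250404 in replicate 2. Values are TPM, a transcript level scaled to transcript length and library size, each with an interval that the authors deposited. These intervals cover counting error and the assignment of reads within 1 library, and not the spread between embryos. They are centred on a posterior mean, and for 3 members a TPM lay just outside its own interval in at least 1 library. With 1 group of 2 samples no test between conditions exists, so differences between the embryos are described by whether their intervals lie apart, and TPM are given for replicate 1 and then replicate 2. All 7 forebrain genes examined, Emx1 and Dlx1 among them, reached 1 TPM in both libraries, and none of 6 Hox genes of the hindbrain and spinal cord did.

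Core histones form the octamer around which DNA is wrapped, with an H2A and H2B dimer on each face of an H3 and H4 tetramer, and H1 binds the linker DNA between nucleosomes. Replication-dependent histone genes lie in clusters, have as a rule no introns, and end their messages in a conserved stem-loop in place of a poly(A) tail. The stem-loop is bound by the stem-loop binding protein Slbp, and the U7 small nuclear ribonucleoprotein directs the cut downstream of it. In the embryonic forebrain, S-phase cells are mostly the progenitors that line the ventricles.

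The stem-loop sites of the most abundant member of each class for which one was found, and of members with other versions, are shown because this element defines the family. They were read 5′ to 3′ from GENCODE M21 transcripts on mm10, with the 16 bases of the stem-loop in capitals and 5 bases on either side in lower case, or fewer where the annotated transcript ends.
Hist1h1e: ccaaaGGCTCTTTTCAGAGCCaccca
Hist1h2ap: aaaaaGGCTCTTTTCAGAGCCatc
Hist3h2ba: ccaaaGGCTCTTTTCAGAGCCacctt
Hist1h3d: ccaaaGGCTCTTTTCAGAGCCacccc
Hist1h4d: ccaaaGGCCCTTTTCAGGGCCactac
Hist1h3c: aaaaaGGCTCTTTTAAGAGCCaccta
Hist1h4i: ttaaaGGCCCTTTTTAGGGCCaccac
A stem-loop of this form (a 6-base stem and a 4-base loop) was found in 44 of the 64 members, against 68 of 21866 protein-coding genes in the annotation (0.311%, the members included). By class it was found in 4 of 6 H1, 11 of 18 H2A, 8 of 15 H2B, 9 of 12 H3 and 12 of 13 H4 members. Of the 20 members without it, 14 had annotated transcripts that stop 2 bases or fewer after the stop codon, so that the window in which it would lie is missing. Among the 50 members with more sequence after the stop codon, 88.0% had the stem-loop. It started 22 to 59 bases after the stop codon, with a median of 32.5.

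The 44 sites held 8 versions of the stem-loop, and those of the H4 genes were set apart from the rest. The version printed for Hist1h1e was shared by 24 members, of which 3 were H1, 10 H2A, 6 H2B, 5 H3 and 0 H4. The version of Hist1h4d was found in 7 members, all of them H4. The version of Hist1h3c was found in 6 members (1 H1, 2 H2B and 3 H3), and that of Hist1h4i in 2, both H4. Summed TPM of the 24 members with the commonest version were 3566 and 2415, and those of the 7 H4 members 346 and 198.

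Together the 64 genes summed to 4302 and 2881 TPM, with a mean of 3592 ± 1005 (SD, n = 2). They took 0.127% of all counts in replicate 1 (95% Wilson interval 0.126 to 0.128%) and 0.0844% in replicate 2 (0.0834 to 0.0855%), where the interval covers counting error only. In both libraries 47 of 64 members (73.4%) reached 1 TPM, against 59.6% of protein-coding genes, and 17 had a TPM of 10 or more. The median member stood at 5.13 and 3.09 TPM, beside 3.87 and 4.59 TPM for protein-coding genes. The family was thus close to the middle of all genes by its median, while its sum rested on few members. The 6 most abundant, which were the same in both libraries, held 86.7% of the summed TPM in each.

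**Figure D1:**
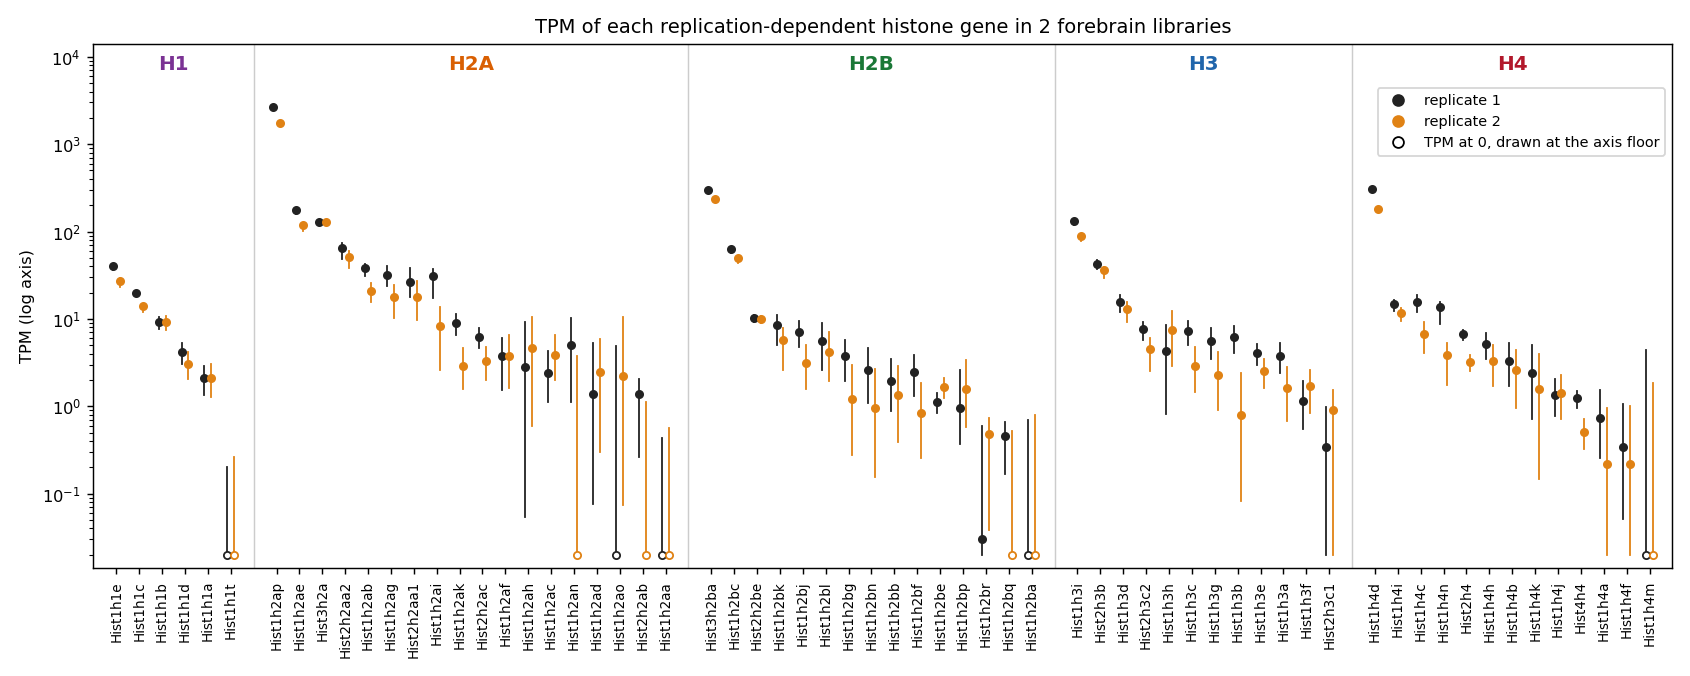
TPM on a log axis of each of the 64 members, ordered by level within its class, in replicate 1 (dark) and replicate 2 (orange), with the deposited intervals as vertical lines and open circles for a TPM of 0. Hist1h2ap stands above every other member, and 1 member leads each of the classes H2B, H3 and H4.

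H2A transcripts were the most abundant class, at 3213 and 2127 TPM, which was 74.7% and 73.8% of the summed TPM of all members. H2B followed with 406 and 319 TPM (9.43% and 11.1%), H4 with 375 and 218 TPM (8.72% and 7.58%), H3 with 232 and 162 TPM (5.39% and 5.62%) and H1 with 76.1 and 55.3 TPM (1.77% and 1.92%). The order was the same in both embryos. When lower and upper bounds were summed over members, 8 of the 10 pairs of classes lay apart in both libraries. H2B and H4 lay apart in replicate 2 only, and H3 and H4 in replicate 1 only.

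Most of the H2A level was assigned to a single gene, Hist1h2ap. Its coding sequence is identical to that of Hist1h2ao, so its level depends on how reads were divided between these copies. Without Hist1h2ap, H2A was still the largest class, and its share was 32.6% and 33.8%, followed by H2B with 25.1% and 28.0%, H4 with 23.2% and 19.2%, H3 with 14.3% and 14.2% and H1 with 4.71% and 4.85%. As reads were assigned, every class but H1 drew most of its level from 1 gene in both libraries. Hist1h2ap held 83.6% and 81.9% of H2A and Hist3h2ba 73.6% and 74.6% of H2B. Hist1h3i held 57.3% and 54.7% of H3, and Hist1h4d 82.5% and 83.8% of H4. In H1, Hist1h1e held 53.4% and 48.5%.

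**Figure D2:**
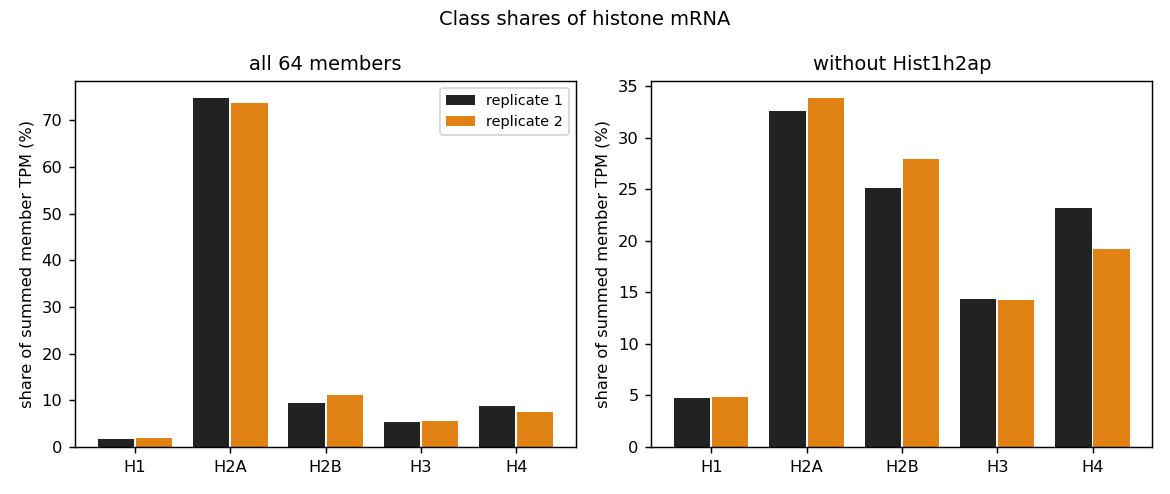
Share in percent of the summed member TPM held by each class in replicate 1 (dark bars) and replicate 2 (orange bars), for all 64 members on the left and without Hist1h2ap on the right; the vertical axes differ in range. H2A falls from 74.7% and 73.8% to 32.6% and 33.8%, and H1 is lowest in both panels.

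Among the H1 genes, Hist1h1e, which encodes the somatic subtype H1.4, was highest at 40.6 and 26.8 TPM. Hist1h1c, which encodes H1.2, stood at 20.02 and 13.95 TPM. In both genes replicate 1 was higher and the intervals lay apart. Hist1h1b, which encodes H1.5, had 9.23 and 9.34 TPM, and Hist1h1a, which encodes H1.1, had 2.09 in each library; in both the embryos were nearly equal. Hist1h1d, which encodes H1.3, had 4.15 and 3.07 TPM with overlapping intervals. Hist1h1t, the testis-specific linker histone gene, had no count, and 3 counts would have corresponded to 0.208 and 0.270 TPM.

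The H2A class was led by Hist1h2ap at 2686 and 1741 TPM, from 23542 and 11752 counts. Hist1h2ae followed with 175 and 118 TPM, Hist3h2a with 127 and 128 TPM, Hist2h2aa2 with 65.4 and 51.1 TPM and Hist1h2ab with 37.9 and 21.1 TPM. Hist3h2a was nearly equal in the embryos, while the intervals of Hist1h2ap, Hist1h2ae and Hist1h2ab lay apart with replicate 1 higher. Below them, Hist1h2ai had 31.3 and 8.22 TPM and Hist1h2ak 9.05 and 2.87 TPM, both also apart. Translated from the annotation, the 18 H2A genes encoded 9 distinct proteins, and 9 of the genes, Hist1h2ap among them, encoded the same protein of 130 residues. Those 9 genes held 92.47% and 90.03% of the H2A level. Hist3h2a differed from this protein at 1 residue and Hist2h2aa2 at 4. Hist1h2aa, a testis form, had no count.

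Among H2B genes Hist3h2ba was highest with 298 and 238 TPM, with the intervals apart. Hist1h2bc had 62.3 and 49.6 TPM, also apart, while Hist2h2be had 10.4 and 10.0 TPM, nearly equal in the embryos. Hist1h2bk at 8.57 and 5.72 TPM and Hist1h2bj at 7.08 and 3.11 TPM completed the highest 5, with overlapping intervals. The H2B proteins were more varied, with 9 distinct proteins among 15 genes. The protein of Hist3h2ba differed from the other members of its length at 6 to 10 residues, so the most abundant H2B message did not encode the commonest H2B protein. The 5 genes for that commonest protein together reached 17.8 and 9.60 TPM. Hist1h2ba, a testis form, had no count.

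Hist1h3i led the H3 class at 133 and 88.6 TPM, with the intervals apart. Hist2h3b had 42.9 and 35.9 TPM, Hist1h3d 15.6 and 12.8 TPM, Hist2h3c2 7.75 and 4.54 TPM and Hist1h3h 4.24 and 7.46 TPM, and the intervals of these 4 genes overlapped between the embryos. Hist1h3c, lower at 7.24 and 2.89 TPM, lay apart. The 12 H3 genes encoded only 2 proteins, which differ at 1 residue. The protein of Hist1h3i was encoded by 4 genes and held 63.2% and 61.7% of the H3 level, and the other protein was encoded by 8 genes and held 36.8% and 38.3%.

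All 13 H4 genes encoded the same protein of 103 residues, from 12 distinct coding sequences. Hist1h4d stood at 310 and 183 TPM, from 2083 and 948 counts, with the intervals apart. By the mean of the libraries the next was Hist1h4i at 14.7 and 11.8 TPM, whose intervals overlapped, although Hist1h4c was above it in replicate 1. Hist1h4c at 15.7 and 6.72 TPM and Hist1h4n at 13.8 and 3.88 TPM lay apart, as did Hist2h4 at 6.71 and 3.23 TPM. Most of the message for this protein thus came from Hist1h4d, whose coding sequence differed from the others at 18 to 40 bases. Hist1h4m had no count, although its posterior mean TPM averaged 1.18 over the libraries and 88.1% of its 100-base windows occur in another gene.

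By genomic cluster, the 52 Hist1 genes of chromosome 13 summed to 3708 and 2387 TPM, or 86.2% and 82.9% of the family. The Hist3 cluster on chromosome 11 was next although it has only 2 members, Hist3h2a and Hist3h2ba, which together reached 426 and 366 TPM (9.89% and 12.7%). The 9 Hist2 genes of chromosome 3 summed to 167 and 127 TPM (3.89% and 4.41%). The single Hist4 gene, Hist4h4 on chromosome 6, had 1.23 and 0.51 TPM. Read as counts that are not divided by transcript length, the mean share of Hist3 was 24.3% and that of Hist1 69.9%. The deposited model of Hist3h2a is 2146 bases long, and that of Hist1h2ap 482.

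Along chromosome 13 the Hist1 genes fell into 4 blocks separated by more than 100 kb. The block of 17 genes that holds Hist1h2ap, Hist1h3i and Hist1h1b summed to 2905 and 1874 TPM, and the block of 28 that holds Hist1h4d, Hist1h2ae and Hist1h2bc to 738 and 470 TPM. A block of 5 genes between them reached 65.3 and 42.8 TPM. The last block, Hist1h2ba and Hist1h2aa, is the pair of testis forms, and neither had a count. Germ cell markers were low as well, with none of 5 at 1 TPM in both libraries. Within the blocks a few high genes stood among low ones, and neighbours could differ by orders of magnitude.

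**Figure D3:**
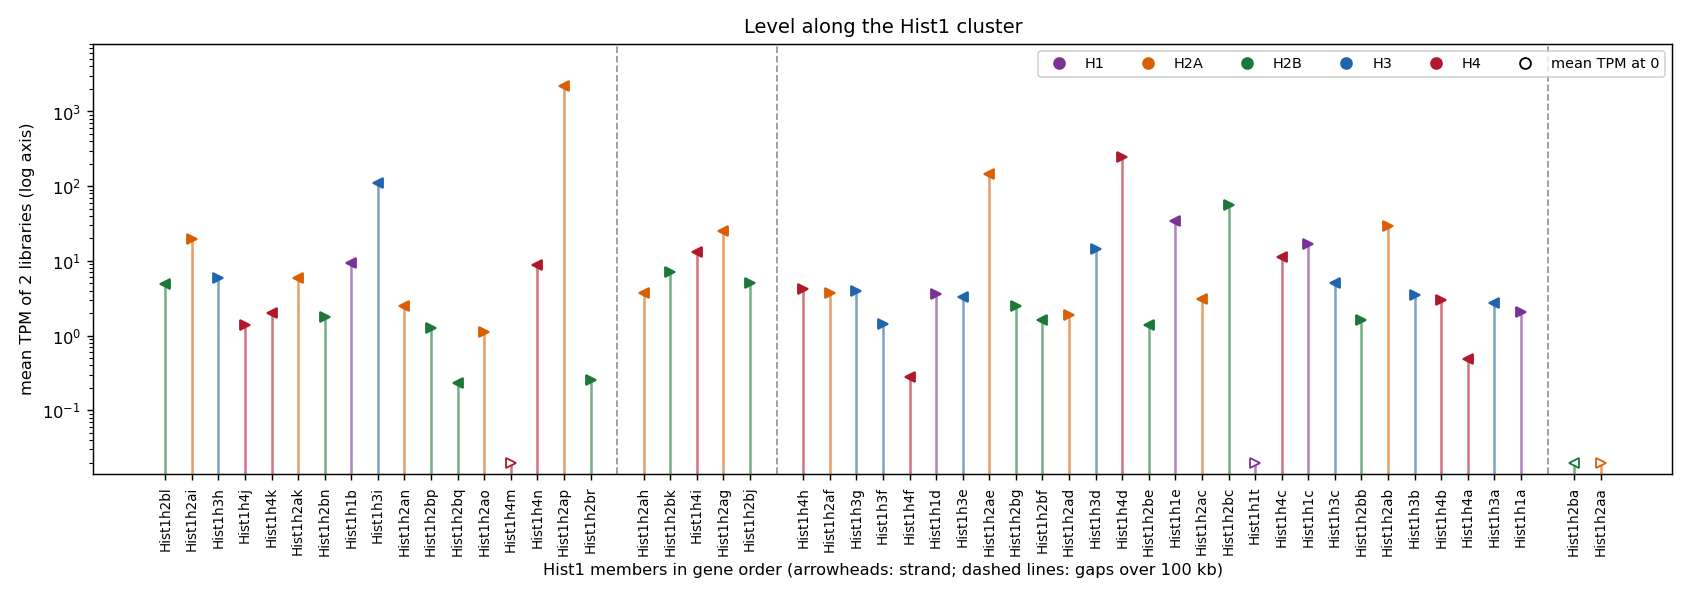
Mean TPM of the 2 libraries on a log axis for the 52 Hist1 members in gene order, with colour for class, arrowheads for strand and open symbols for a mean of 0. Hist1h2ap, Hist1h4d, Hist1h2ae and Hist1h3i rise above their neighbours in separate places, and the last block holds no signal.

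The neighbours were not matched within head-to-head pairs either. Of the members, 24 formed 12 such pairs, each of 1 H2A and 1 H2B gene with 175 to 305 bases between their annotated starts. Hist1h2ap, with 2686 and 1741 TPM assigned to it, faces Hist1h2br, at 0.03 and 0.48 TPM, across 235 bases. Hist1h2ae at 175 and 118 TPM faces Hist1h2bg at 3.73 and 1.21 TPM. In the next pair the order was the opposite, with Hist1h2ac at 2.39 and 3.86 TPM beside Hist1h2bc at 62.3 and 49.6 TPM. Intervals lay apart in both libraries with H2A higher in 3 pairs and with H2B higher in 2, and 7 pairs did not lie apart in both.

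Promoter motifs were unevenly spread over the classes. RefSeq windows from 250 bases before to 50 after the start were found for 58 members and searched on both strands, and 32851 windows of the same length gave the background. The CCAAT box binds the factor NF-Y. The TATA box, which positions the transcription machinery, was searched as TATAAA. The octamer, bound by POU factors such as Pou2f1, was searched as ATTTGCAT. The H1 box was searched as AAACACA. A match to the CCAAT box was in all 46 windows of H1, H2A, H2B and H3 genes and in 3 of 12 H4 windows, against 37.4% of all windows. An exact match to TATAAA, at any position in the window, was in 58.6% of member windows and 13.6% of all. The octamer was in 7 of 18 H2A and 4 of 13 H2B windows, in none of the H1, H3 or H4 windows, and in 1.74% of all. The H1 box was in 4 of 5 H1 windows, 2 H2A and 1 H2B, and in 7.18% of all. Facing pairs share part of their windows, so their matches are not separate.

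Stretches of 150 bases ending at the RefSeq start are shown for abundant members of 3 classes and for a further H1 gene, since the motifs in capitals are what the class comparison counts. The order is H1, H1, H2A and H4, all on mm10, 5′ to 3′ in the direction of the gene. They are Hist1h1e at chr13:23622559-23622708 and Hist1h1b at chr13:21780626-21780775, both on the minus strand, Hist1h2ae at chr13:23571221-23571370 on the minus strand, and Hist1h4d at chr13:23581418-23581567 on the plus strand.
Hist1h1e: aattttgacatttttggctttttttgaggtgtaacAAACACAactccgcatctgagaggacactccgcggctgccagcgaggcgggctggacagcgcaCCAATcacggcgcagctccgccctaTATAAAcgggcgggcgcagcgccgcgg
Hist1h1b: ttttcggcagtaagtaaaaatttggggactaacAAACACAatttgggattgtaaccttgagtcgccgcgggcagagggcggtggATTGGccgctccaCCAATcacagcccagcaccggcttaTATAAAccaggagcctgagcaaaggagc
Hist1h2ae: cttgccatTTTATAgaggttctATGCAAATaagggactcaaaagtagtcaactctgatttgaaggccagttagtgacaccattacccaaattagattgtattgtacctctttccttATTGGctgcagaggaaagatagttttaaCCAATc
Hist1h4d: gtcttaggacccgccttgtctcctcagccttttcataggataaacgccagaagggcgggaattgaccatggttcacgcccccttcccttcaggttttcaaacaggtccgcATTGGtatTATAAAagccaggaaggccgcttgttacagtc
Both H1 stretches hold the H1 box, the CCAAT box and the TATA box in that order, although Hist1h1e and Hist1h1b differed in level. The Hist1h2ae stretch holds the octamer and the TATA box on the opposite strand, the direction of its neighbour Hist1h2bg. The window of Hist1h2ap, the most abundant H2A gene, held a CCAAT box but no exact match to TATAAA, ATTTGCAT or AAACACA. Near matches were not searched. The Hist1h4d stretch holds the TATA box close to the start.

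How surely a level belongs to a given copy can depend on shared sequence, since many genes of a class are near-copies. Each annotated transcript was divided into windows of 100 bases, the read length that the deposited effective lengths imply, and windows found in another gene were counted. The share of such windows was 10% or less in 12 members and over 90% in 8. It was read from M21 transcripts, which have another length than the deposited model in 20 members. Among the 57 members with a posterior count of 10 or more in replicate 1, the posterior SD of the count had a median of 1.51% of the count in the 16 members with a share up to 20%, and of 21.2% in the 22 members above 60%. These groups were not matched for count, and the part of count in this contrast was not tested. Of the leading genes, Hist1h4d shared 0 windows and Hist3h2ba 4.85%, whereas Hist1h3i shared 68.6% and Hist2h2aa2 and Hist2h3b shared 100%. All windows of Hist2h3b occur in Gm20628, an antisense gene outside the family, at 0.93 and 0.50 TPM. Hist3h2a shared 29.8%, all with the overlapping gene Trim17, which itself stood at 1.10 and 1.67 TPM, and whether counting used the strand is not given in the sources used here.

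Some abundant members with a share above 60% were exceptions to that relation. In replicate 1 the posterior SD was 1.76% of the count for Hist1h3i and 3.35% for Hist2h3b. The lowest in that group was that of Hist1h2ap. Hist1h2ap shared 92.2% of its windows, and its coding sequence is identical to that of Hist1h2ao. Yet its posterior SD was 0.230% and 0.376% of the count, while Hist1h2ao had 0 and 2.25 TPM. The 30 windows that Hist1h2ap does not share with Hist1h2ao are all at its 5′ end, where its transcript has 32 bases before the coding sequence and that of Hist1h2ao has 2. The 28 windows that Hist1h2ao has to itself are all at its 3′ end, where its model runs 31 bases past the stem-loop and that of Hist1h2ap only 3. Within both models, only reads in these windows can tell the copies apart. The summed level of the 9 genes with this protein does not depend on that division.

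**Figure D4:**
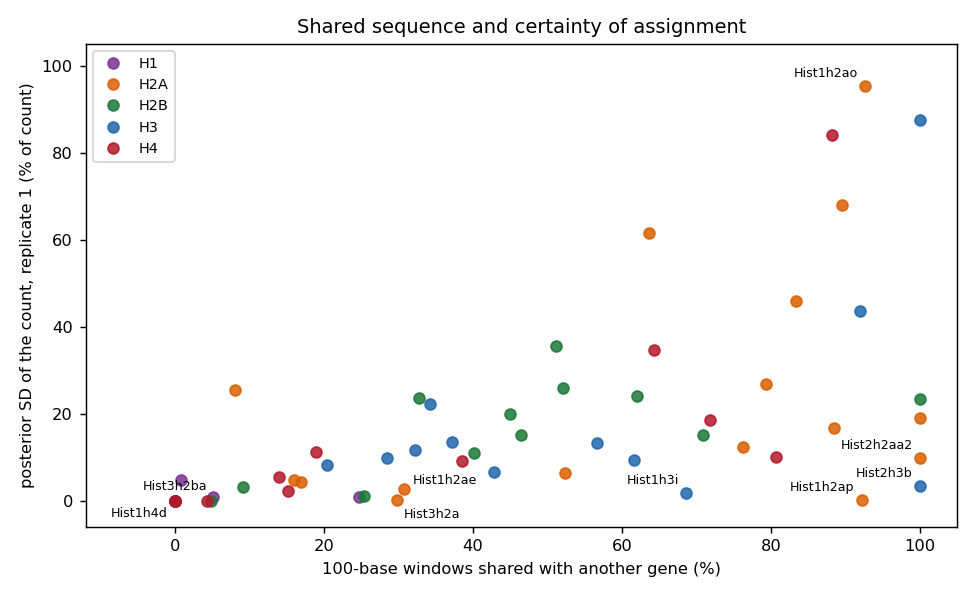
Posterior SD of the count in replicate 1, in percent of the count, against the percentage of 100-base windows shared with another gene, for the 57 members with a posterior count of 10 or more, coloured by class. Members with a share up to 20% have a median SD of 1.51% and those above 60% one of 21.2%, and Hist1h2ap lies near 0 at a share of 92.2%.

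Between the embryos, the members that differed were all higher in replicate 1. The intervals of 17 of the 60 members with a count (28.3%) lay apart with replicate 1 higher, against 5.25% of 17076 protein-coding genes, and 0 lay apart with replicate 2 higher, against 27.4%. They were 2 H1, 5 H2A, 2 H2B, 3 H3 and 5 H4 genes. Beside those described above, they include Hist1h3b at 6.21 and 0.80 TPM. In bulk tissue, fewer cells that express a gene and less RNA per cell cannot be told apart. The 2 embryos are 2 samples of 1 group, so nothing in the design assigns a condition to this difference. Their labels give different collection days, which cannot be told apart from a difference between embryos.

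With a mean TPM of at least 5 and a ratio of at least 2-fold also required, 5 members were higher in replicate 1, against 0.0468% of protein-coding genes, and 0 in replicate 2, against 0.141%. The 5 were Hist1h2ai, Hist1h4c, Hist1h4n, Hist1h2ak and Hist1h3c, with replicate 1 over replicate 2 at 3.81-fold, 2.34-fold, 3.56-fold, 3.15-fold and 2.51-fold. They were 5 of the 8 protein-coding genes so called and 8.33% of the members with a count. The other 3 were Hbb-y and Hba-x, embryonic globin genes, and Rpl10-ps3. Of the 5 members, Hist1h2ai and Hist1h4n share 88.4% and 80.7% of their windows, whereas Hist1h4c, Hist1h2ak and Hist1h3c share 14.01%, 15.99% and 28.4%. The shares of Hist1h4c and Hist1h3c were read from M21 transcripts of 820 and 630 bases. Their deposited models have 395 and 489 bases, on which the shares may be higher.

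The shift was broad within the family. On the log2 scale of TPM + 1, the median ratio of replicate 2 over replicate 1 was -0.51 over the 53 members with a mean TPM of 1 or more, against 0.15 over 13070 protein-coding genes. Of the 53, 40 (75.5%) had the higher TPM in replicate 1, against 25.9% of those genes. The medians by class were -0.34 for H1, -0.55 for H2A, -0.33 for H2B, -0.58 for H3 and -0.54 for H4. The summed TPM was 1.38-fold higher in replicate 1 for H1, 1.51-fold for H2A, 1.27-fold for H2B, 1.43-fold for H3 and 1.72-fold for H4. No class went the other way, although single members did, such as Hist1h3h at 4.24 and 7.46 TPM. Hist3h2a, Hist2h2be, Hist1h1b and Hist1h1a were nearly equal in the embryos.

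**Figure D5:**
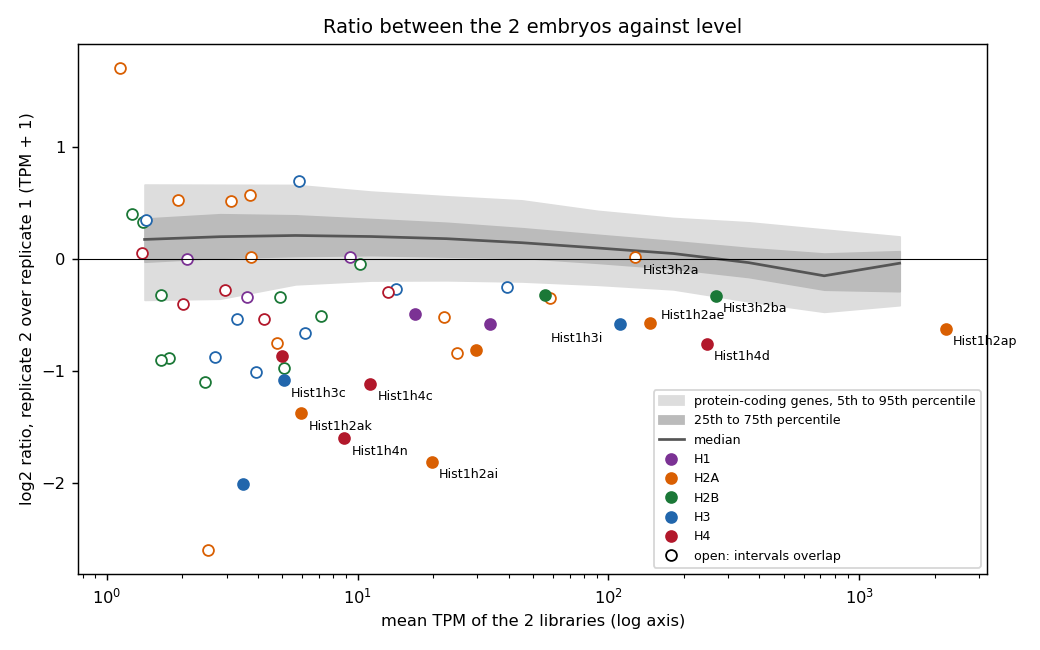
Log2 ratio of TPM + 1, replicate 2 over replicate 1, against the mean TPM on a log axis for the 53 members with a mean TPM of 1 or more, coloured by class and filled where the deposited intervals lie apart. Grey bands hold the middle of all protein-coding genes at each level (5th to 95th and 25th to 75th percentile). All filled points lie below 0.

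Transcript length moved with the difference in other genes too. Among protein-coding genes outside the family with a deposited length under 700 bases and a mean TPM of 1 or more, 47.1% of 384 lay apart with replicate 1 higher and the median log2 ratio was -0.19. Of the 39 members in that range, 12 (30.8%) lay apart and the median was -0.57, a value that 4.43% of those other genes reached or fell below. The other short genes were more abundant, with a median mean TPM of 106.0 against 4.91 for the members. Among longer genes of 1500 bases or more, 2.71% of 10360 lay apart with replicate 1 higher, with a median log2 ratio of 0.19, and 2 of 5 members did. Read as calls from intervals alone, the short members were thus not above other short genes, while their ratios were lower. With a mean TPM of at least 5 and a 2-fold ratio also required, 5 of the 39 members were higher in replicate 1. Of the 384 other short genes, 1 was. The part of length in the difference was not tested.

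Of 5 RNAs without a poly(A) tail outside the family, which were chosen after their values were seen and so support nothing, 2 lay apart: Rn7sk at 712 and 373 TPM and Rmrp at 102 and 18.7 TPM. The intervals of Rn7s1, Rn7s2 and Rpph1 overlapped, and the median log2 ratio of the 5 was -0.71. Rn7s1 at 9675 and 5914 TPM and Rn7s2 at 9677 and 5912 TPM had nearly the same values. Whether reads were split between these 2 was not tested. Within the family, the 31 members with a stem-loop and no poly(A) signal in the last 50 bases of the transcript had a median of -0.62, those with both had -0.33 (13 members), and those with neither -0.33 (17 members), where each median is over those with a mean TPM of 1 or more. A poly(A) signal was found in 16 of 64 members, each read from 1 transcript. It was found in 78.0% of protein-coding genes, where any protein-coding transcript counted. In 14 members the transcript ends 2 bases or fewer after the stop codon, so the bases searched were almost all coding. The part of the 3′ end in the difference was not tested.

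Genes of the surrounding pathway, given as counts of genes that lay apart, went in both directions. Among all protein-coding genes that averaged at least 10 TPM, the level of most genes in these lists, 9.70% lay apart with replicate 1 higher and 40.2% with replicate 2 higher. Of 15 genes for histone gene transcription and message processing, 0 were higher in replicate 1 and 7 in replicate 2, a share near that background, and the median log2 ratio was 0.09, beside 0.15 for all protein-coding genes. Slbp stood at 130 and 137 TPM and overlapped, as did the nuclear cap-binding gene Ncbp1 at 95.3 and 100.4 TPM, whereas Cpsf3, the endonuclease that cuts the message, at 94.3 and 100.8 TPM, and Ncbp2, at 85.6 and 100.4 TPM, were higher in replicate 2. Of 5 matched genes for histone message decay, 0 and 2 lay apart, also near the background: Lsm1 stood at 52.2 and 49.5 TPM, Tut4 at 32.7 and 38.2 TPM, Tut7 at 16.7 and 20.9 TPM and Eri1, the exonuclease that trims the stem-loop, at 18.2 and 19.4 TPM, of which only Tut7 was apart. Of 11 histone chaperone and deposition genes, 2 and 3 lay apart, again beside 9.70% and 40.2%. Rbbp4 stood at 350.5 and 377 TPM and Rbbp7 at 188 and 215 TPM, both higher in replicate 2, while the H3 and H4 chaperone Nasp at 104 and 110 TPM and Hat1, the acetyltransferase for new H4, at 80.3 and 75.8 TPM, overlapped.

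More S-phase and cell-cycle genes were higher in replicate 1 than in replicate 2, with smaller ratios than the histone genes. Of 14 S-phase genes, 8 were higher in replicate 1 and 1 in replicate 2, beside 9.70% and 40.2% of protein-coding genes at 10 TPM or more, with a median log2 ratio of -0.13. The sliding clamp gene Pcna had 214 and 185 TPM and cyclin A2, Ccna2, 117 and 97.4 TPM, both apart, whereas Rrm2, a ribonucleotide reductase subunit, at 113 and 119 TPM, and Mcm7, a subunit of the replicative helicase, at 150.1 and 149.8 TPM, overlapped. All 5 markers of dividing progenitors, of which Pcna is also in the S-phase list, were higher in replicate 1, with a median of -0.28, and Cdk1, at 251 and 177 TPM, had the largest ratio of them. Their summed level was 792 and 635 TPM, and none was near 0. Among red blood cell genes, 0 of 6 were higher in replicate 1 and 4 in replicate 2, beside 5.25% and 27.4% of all protein-coding genes with a count, with summed levels of 4300.0 and 5524 TPM. Outside that list, the embryonic globin genes Hbb-y, at 529 and 123 TPM, and Hba-x, at 69.7 and 28.35 TPM, were higher in replicate 1. The part of the share of dividing cells, or of blood, in the histone difference was not tested.

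Polyadenylated histone variant genes, which are expressed outside S phase as well, had higher TPM than most members. Because the labels name both total RNA and a Smart-seq protocol, which primes on poly(A) tails, how the libraries captured messages with and without a tail is not known, and levels of these genes and of stem-loop messages may not be on the same footing. The 10 genes summed to 9918 and 9265 TPM, led by H3f3a at 4018 and 4186 TPM, H3f3b at 2495 and 2188 TPM, H2afz at 1669 and 1413 TPM and H2afv at 679 and 502 TPM. The first 2 encode the replacement histone H3.3, and the others H2A.Z variants. Of the 10, 7 were higher in replicate 1 and 2 in replicate 2, beside 9.70% and 40.2% of protein-coding genes at 10 TPM or more, with a median log2 ratio of -0.21. H3f3a was among those higher in replicate 2. With that limit, the 12 replication-dependent H3 genes together had 232 and 162 TPM.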

How the data were processed

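Total RNA-seq of 2 embryonic forebrains (1 group) was used as deposited gene and transcript tables on mm10 with GENCODE M4, per the files' notes; the aligner and quantification program are not given in the sources used here. Per the file headers, the authors deposited expected counts (estimated, not whole), TPM, FPKM, each transcript's percent of its gene's level, posterior means and SDs, and a TPM interval whose level is not stated. Names, types, transcripts and coordinates came from GENCODE M21 by ID without version. The tables describe M4 models: in 20 members the transcript has another length in M21, which bears on windows, 3′ ends and annotated starts.

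Classes and clusters were read from symbols. Genes lay apart when the deposited intervals did not overlap. A count of 0 allows 3 counts. Motifs, stem-loops, head-to-head pairs within 1000 bases and shared windows were found by exact search; promoters came from RefSeq. Genes named were up to 5 per class and 4 per list by mean TPM, all without a count, all of Hist3 and Hist4, those apart with a mean TPM of 5 or more, and the 3 highest pairs (Hist1h3b, Hist1h2ao and the genes outside the family and lists were chosen after their values were seen). A gene of the lists is not reported here, but counts include it. The members and lists were chosen with earlier results of these data known. Interval calls and the stem-loop search were run on simulated data, which held no reads shared among copies. The inserted stem-loops were built from the search pattern, so that finding them was fixed in advance. Python 3.11.15, pandas 2.3.3, numpy 2.4.6, scipy 1.17.1, matplotlib 3.10.9, and edgeR 4.0.16 in R 4.3.3 (TMM scaling only) were used.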

Additional observations from a re-analysis of the deposited data

How the results depend on the processing

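Over the alternatives tried, the median log2 ratio of the members stayed below 0. As deposited, 17 members lay apart with replicate 1 higher, 18 with the intervals rescaled to a constant sum over nuclear protein-coding genes and 5 with a mean TPM of 5 or more and a 2-fold ratio required; 0 lay apart the other way in each. The count of members at 1 TPM in both libraries was 47, and 17 at 10 TPM. Without Hist1h2ap the summed TPM averaged 1378 in place of 3592, and the mean shares were 4.78% for H1, 33.2% for H2A, 26.5% for H2B, 14.3% for H3 and 21.2% for H4, and 59.96% for Hist1, 10.7% for Hist2, 29.2% for Hist3 and 0.0604% for Hist4. From counts not divided by length the mean shares were 3.35% for H1, 73.5% for H2A, 12.8% for H2B, 4.45% for H3 and 5.92% for H4. By cluster they were 69.9% for Hist1, 5.60% for Hist2, 24.3% for Hist3 and 0.138% for Hist4. The division by length is the only step in which these shares and those of TPM differ. The median log2 ratio of -0.51 became -0.57 with a pseudocount of 0.1, -0.51 with posterior mean TPM and -0.72 with TMM scaling of counts, where the median of protein-coding genes moved from 0.15 to -0.02. In alternatives chosen after seeing the data it was -0.33 over the 15 members with 20% or less shared windows in their M21 transcripts. It was -0.52 over the 36 whose transcript has the same length in both annotations. Leaving out a replicate leaves a single library, whose summed TPM was 2881 to 4302. No paired analysis was possible because there is only 1 group. At a count of 0 the depth allowed up to 0.460 TPM in replicate 1 and 0.597 TPM in replicate 2 for the members without a count.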
